A study of Danio rerio with 2 samples.

Results

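The enzymes that supply cells with deoxynucleotides, together with the last enzyme of pyrimidine breakdown, were followed in gnl2 mutant and wild-type zebrafish embryos. Gene probes were taken whose name in the array files is rrm1, rrm2, rrm2l, rrm2b, dhfr, dut, tyms or upb1, and 9 probes carried such a name. A further 2 probes, filed as zgc:103772 and zgc:56465, were assigned to dut and tyms by accession. The probe filed as rrm2 carries an accession that the reference table now gives to rrm2l, so these 8 names stand for 7 genes and 11 probes, out of 21495 gene probes with 17983 distinct names in all. Of the 11 probes, 10 passed the filters and 1, the single tyms probe, did not. The genes were chosen on the mutant over wild-type ratios of these same arrays, so their ratios are given as a description, with no test, and nothing is read from how many of them lie on 1 side.

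Mutants were homozygous for gnl2 bw41c and came from crosses of heterozygous carriers, wild types were of the TL strain, and both were taken as whole embryos at 22 hours post-fertilization. Gnl2 is a nucleolar GTPase involved in making the large ribosomal subunit. Each extract pooled 40 embryos. The 2 arrays each received both genotypes, with mutant RNA in Cy5 on array 1 and in Cy3 on array 2. The wild types are not described as siblings of the mutants, so family background and genotype cannot be told apart. Every ratio is a log2 ratio of mutant over wild type, and a mean is given with its SD over n = 2 arrays. The series text calls the arrays biological replicates, although their titles carry a single replicate number. Array, dye orientation and embryo pool cannot be told apart.

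Across all 19284 probes tested, 20.0% were lower in mutants on both arrays, 21.4% were higher on both and 58.6% were split between the arrays. Array 1 ratios set against array 2 ratios gave Pearson's r of -0.149 and Spearman's rho of -0.197, as a description across probes that share the same RNA. In limma 0 probes, or 0% of those tested, had an adjusted p under 0.05, while 632 had an unadjusted p under 0.05 (1.24% lower and 2.03% higher). The single gnl2 probe had log2 ratios of -0.99 and -2.27, but where it lies relative to the lesion is unknown here, so it does not check the genotype. Of 21 marker genes of muscle, blood, epidermis, nervous system and other embryonic tissues on the array, 20 were well above background in both genotypes on both arrays, and mpx, a neutrophil gene, was not.

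Dividing cells make deoxynucleotides by reducing ribonucleotides. Ribonucleotide reductase does this with a large catalytic subunit, encoded by rrm1, and a small radical-bearing subunit, encoded in vertebrates by the rrm2 and rrm2b genes. Thymidylate is then made by thymidylate synthase (tyms) from dUMP, which the dUTPase encoded by dut supplies while it keeps dUTP out of DNA. Dihydrofolate reductase (dhfr) regenerates the folate cofactor that this step uses up. At the other end of pyrimidine metabolism, β-ureidopropionase (upb1) carries out the last step of uracil and thymine breakdown, which releases β-alanine from uracil. In mammals the small subunit gene RRM2 is expressed with the cell cycle.

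All 9 synthesis probes that passed the filters had a mean ratio below 0, and the upb1 probe had one above 0. These 9 probes stand for only 5 genes, since 4 are of rrm1 and 2 of rrm2b. The tyms probe, left out for its flag, lay above 0 on both arrays. Of the synthesis probes, 6 were lower in mutants on both arrays, 3 of them probes of rrm1, while 0 were higher on both and 3 were split. All probes tested gave 20.0% lower, 21.4% higher and 58.6% split. At the brightest probe of each gene, 3 of the 5 genes were lower on both arrays (60.0%) and 2 were split (40.0%). The mean log2 ratios of the 9 probes lay between -1.13 and -0.12. None of the 11 probes was saturated in either genotype on either array, and each was well above background in both genotypes on both arrays.

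**Figure D1:**
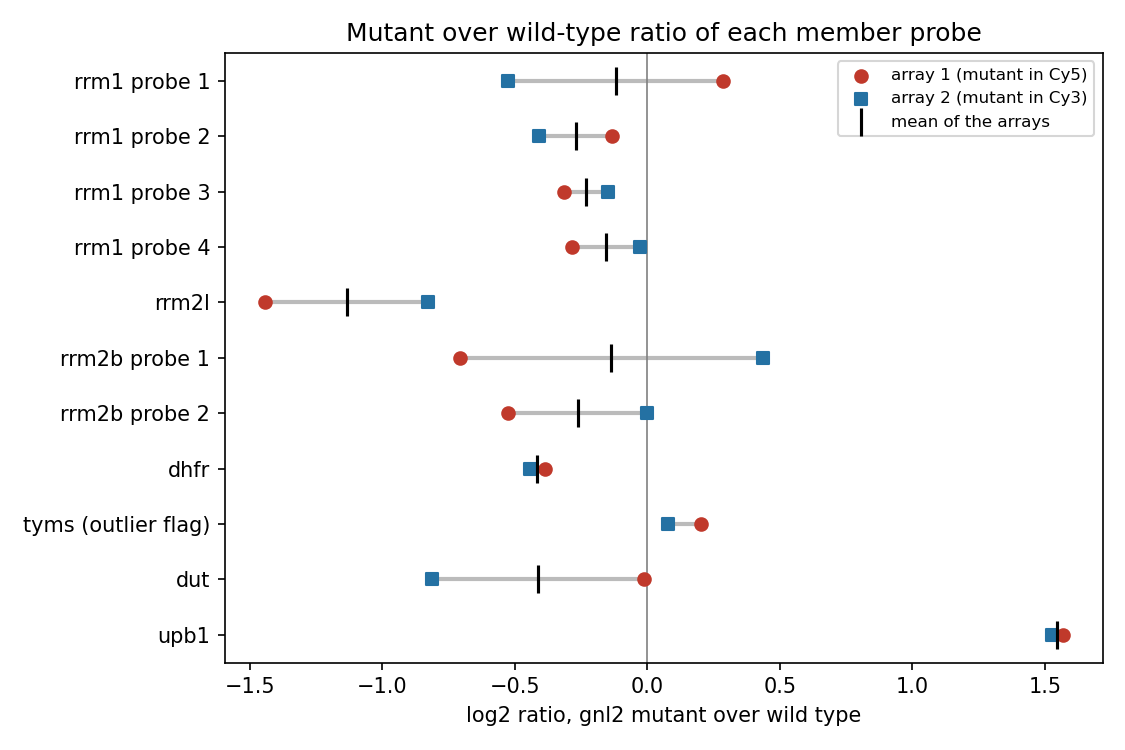
Log2 ratio of mutant over wild type (horizontal axis) for each of the 11 probes, as circles for array 1, squares for array 2 and a bar for their mean, joined by a grey line. The rrm2l points lie at -1.44 and -0.83, 0.62 apart, and those of upb1 at 1.57 and 1.53. The points of both rrm2b probes, of rrm1 probe 1 and of dut lie 0.53 to 1.14 apart. No mean is drawn for tyms, whose spot carried an outlier flag.

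The small subunit gene rrm2l had the lowest ratio of the group. Its normalized intensity was 3795 in mutants and 10322 in wild types on array 1, and 3797 in mutants and 6730.5 in wild types on array 2. The mutant signal was the lower one on both arrays. The log2 ratios were -1.44 and -0.83, averaging -1.13 ± 0.44 (SD, n = 2), so that mutants had 0.368 of the wild-type signal on array 1 and 0.564 on array 2. By its mean this probe ranked 4th from the lowest among the 19284. It did not reach a 2-fold decrease on array 2, and 0.00519% of all probes were at least 2-fold lower on both arrays.

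The large subunit gene rrm1 had 4 probes, numbered by brightness, and their means lay close together, between -0.27 and -0.12. Probe 1 was split between the arrays, with intensities of 33088 in mutants and 27123 in wild types on array 1, and of 20340 in mutants and 29269 in wild types on array 2. Its log2 ratios were 0.29 and -0.53. The other 3 rrm1 probes were lower in mutants on both arrays. Probe 2 had -0.13 and -0.41 (mean -0.27 ± 0.19), probe 3 had -0.31 and -0.15 (mean -0.23 ± 0.12), and probe 4 had -0.28 and -0.03 (mean -0.15 ± 0.18, SD, n = 2 for each). The order of the arrays thus differed between probes of this gene: probes 1 and 2 were lower on array 2, and probes 3 and 4 on array 1.

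The second small subunit gene, rrm2b, had 2 probes and the arrays disagreed on both. Probe 1 had an intensity of 1426 in mutants and 2325 in wild types on array 1, but 664 in mutants and 491 in wild types on array 2. Its ratios were -0.70 and 0.44, with a mean of -0.13 ± 0.81. Probe 2 had 1029.9 in mutants and 1482 in wild types on array 1, and equal signals of 251 in mutants and 251 in wild types on array 2. Its mean was -0.26 ± 0.37 (SD, n = 2), with ratios of -0.52 and 0.0009. A shift between the genotypes of rrm2b could therefore not be told from the spread of the arrays in either direction.

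Besides the named probes, the array holds 5 probes for expressed-sequence contigs annotated to the ribonucleotide reductase small subunit and 1 for the large subunit. The files annotate the small subunit contigs to the zebrafish M2 chain of the enzyme, as partial matches, but give them no gene symbol. These probes were not counted as members. The small subunit contigs had means of -0.03, -0.14, -0.22, -0.07 and 0.05, none of them near the -1.13 of rrm2l. The brightest, TC290036, had 1242 in mutants and 1567 in wild types on array 1, and 289.7 in mutants and 277 in wild types on array 2, a split result. Only TC290079 was lower on both arrays, at -0.18 and -0.26. The large subunit contig TC268912 had a mean of -0.08 ± 0.26. The low ratio of rrm2l thus rests on 1 probe.

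The dihydrofolate reductase gene dhfr was the synthesis gene on which the arrays differed least. Its intensity was 823 in mutants and 1077 in wild types on array 1, and 438 in mutants and 595 in wild types on array 2. The mutant signal was lower on both, with ratios of -0.39 and -0.44 that averaged -0.42 ± 0.04 (SD, n = 2). Mutants thus had 0.75 of the wild-type signal. A contig probe, TC300250, is annotated to dihydrofolate reductase as a partial match (24%) to an entry that is not from zebrafish. It had 0.04 and -0.01, but it carried an outlier flag and did not pass the filters. A log2 ratio of -0.3 or lower on both arrays was met by dhfr and rrm2l, and by 0.586% of all probes.

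The dUTPase gene dut had almost the same mean, -0.41 ± 0.57 (SD, n = 2), but it came from array 2. On array 1 the intensity was 24431 in mutants and 24611 in wild types, a ratio of -0.01, and on array 2 it was 9896 in mutants and 17387 in wild types, a ratio of -0.81. The mean without array 1 is therefore -0.81, and without array 2 it is -0.01.

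The thymidylate synthase probe carried a flag for uneven pixels in both channels of array 1 and was left out of the fit. Its intensity was 1953 in mutants and 1697 in wild types on array 1, and 594 in mutants and 563 in wild types on array 2. These correspond to ratios of 0.20 and 0.08, the only positive pair among the synthesis genes. On array 2, where the spot had no flag, the ratio was smaller than the scanner software's own error of 0.17 in log2.

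**Figure D2:**
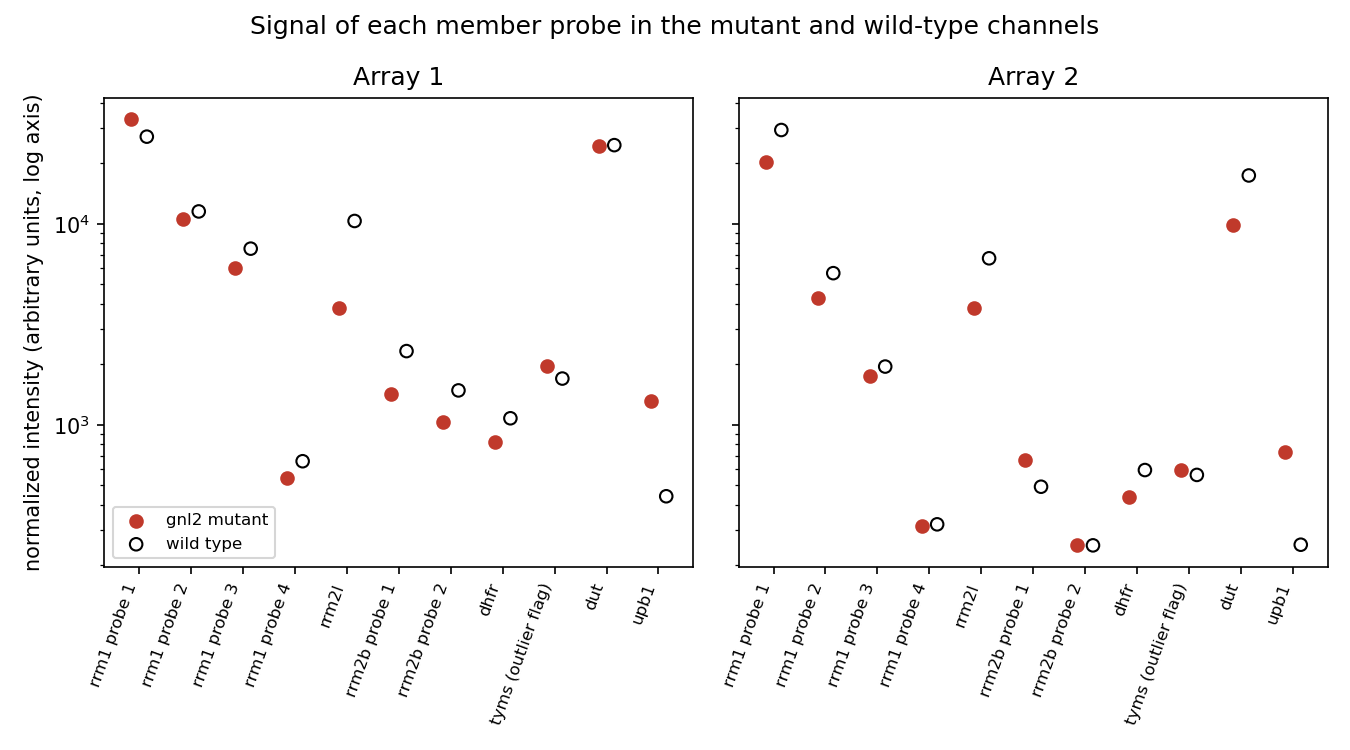
Normalized intensity (vertical log axis, arbitrary units) of each probe in the mutant (filled) and wild-type (open) channel, on array 1 at the left and array 2 at the right. The rrm2l probe has 3795 and 3797 in mutants against 10322 and 6730.5 in wild types, and upb1 has 1306 and 730 in mutants against 441 and 253 in wild types. Intensities of different probes are not comparable as RNA amounts.

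The breakdown gene upb1 was higher in mutants by nearly the same ratio on both arrays. Its intensity was 1306 in mutants and 441 in wild types on array 1, and 730 in mutants and 253 in wild types on array 2. The log2 ratios were 1.57 and 1.53, with a mean of 1.55 ± 0.03 (SD, n = 2), or 2.96-fold and 2.89-fold. It was at least 2-fold higher on both arrays, as were 0.124% of all probes, and ranked 14th from the highest. A second probe, for the contig TC294517, is annotated to the same enzyme, and the upb1 probe lists that contig among its own accessions. That probe was dim, with 117 in mutants and 104 in wild types on array 1 and 91.8 in mutants and 84.9 in wild types on array 2. Its mean was 0.15 ± 0.05, and the software's error of its ratio was 0.88 on array 1 and 0.65 on array 2. It was nevertheless well above background in both genotypes on both arrays, and its ratios of 0.18 and 0.11 stand beside 1.57 and 1.53 for the upb1 probe. The high ratio was therefore seen with 1 of these 2 probes.

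Since β-ureidopropionase is a liver enzyme in mammals, yolk and liver genes were set beside it. Of 16 measured genes 11 were split, 3 had higher (18.8%) and 2 had lower (12.5%) mutant signals on both arrays, where all probes gave 21.4% higher and 20.0% lower. The median ratio was 0.02, against 0.002 over all probes. The fibrinogen gene fga had 1.53 on array 1, near the value of upb1 there, and 0.13 on array 2. The other fga probe had a mean of 0.04. Some other genes of secreted liver proteins were also high on array 1 only: tfa had 1.27 and -0.29, serpina1 0.70 and -0.02, and ambp 0.69 and -0.07. So were apoa1a, at 0.51 and -0.24, and fgg, at 0.38 and -0.02. Others were not: rbp4 had 0.09 and -0.11, gc 0.01 and -0.08, ttr -0.03 and -0.06, and apoeb -0.72 and -0.09. The apoeb and apoa1a probes were saturated in the mutant channel of 1 array, which can lower the ratio there. The 9 probes of apoeb had means from -0.41 to 0.26. The hepatocyte gene fabp10a had -0.05 ± 0.10 and the liver regulator hnf4a -0.003 ± 0.04 (SD, n = 2 for each). The summed intensity of the 16 genes was 158894 and 19359 in mutants on arrays 1 and 2, against 143206 and 20791 in wild types. In both genotypes the sum was thus much larger on array 1 than on array 2. The source of this gap was not tested. Bright probes dominate this sum, among them apoeb and apoa1a, which were saturated in the mutant channel of 1 array. All 16 were well above background in both genotypes on both arrays. A second fibrinogen gene, fgb, at 0.40 and 0.37, was the only one of the 16 with an unadjusted p under 0.05 in limma. Of all probes, 2.03% were higher and 1.24% lower at that threshold. The 5 probes of fgb had means from 0.02 to 0.41. The part of liver or yolk RNA in the upb1 ratio was not tested.

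Set against each other on the same array, the synthesis genes and upb1 lay about equally far apart on both. Breakdown is here 1 gene, and all these genes were chosen on these same ratios, so nothing is read from this distance. On array 1 upb1 stood at 1.57 and the median of the 5 measured synthesis genes (brightest probe of each) at -0.39, a difference of 1.95 in log2. On array 2 the values were 1.53 and -0.53, a difference of 2.05. The synthesis genes did not keep their order between the arrays: rrm2l was lowest on both, but rrm2b was the second lowest on array 1 and the highest on array 2.

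**Figure D3:**
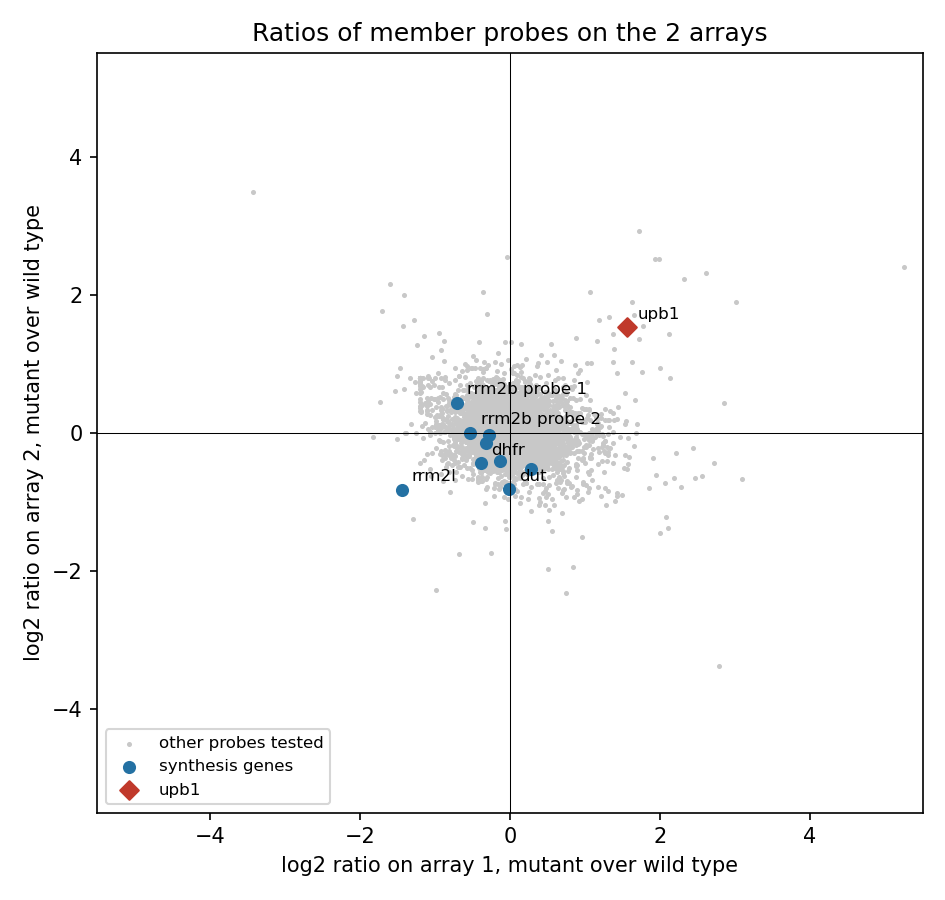
Log2 ratio of mutant over wild type on array 1 (horizontal) and array 2 (vertical) for the 9 synthesis probes (blue), upb1 (red diamond) and the other probes tested (grey). The upb1 probe lies in the upper right at 1.57 and 1.53 and rrm2l in the lower left at -1.44 and -0.83, while 3 synthesis probes lie in quadrants where the arrays disagree.

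The scanner software gives an error for each ratio from the pixels and its model of 1 array. On the software's own ratios, the gap between the arrays was larger than 2 combined errors for 5 of the 10 probes that passed the filters, against 12.2% of all probes tested. These 5 were dut, rrm1 probe 1, both rrm2b probes and rrm2l. The combined errors of the member probes were 0.23 to 0.30, whereas the dim TC294517 probe had errors of 0.88 and 0.65 on the arrays. A gap passes 2 errors less easily in dim probes, so the 2 shares are not like for like. For rrm2l the gap was 0.65 with a combined error of 0.26, and for rrm2b probe 1 it was 1.23 with a combined error of 0.24. The gap was within 1 combined error for upb1, at 0.05 against 0.30, for dhfr, at 0.10 against 0.24, and for rrm1 probe 3. The mean of the arrays taken as red over green, with no turn for the dyes, was 0.41 for rrm1 probe 1, 0.40 for dut, -0.57 for rrm2b probe 1, -0.31 for rrm2l, 0.03 for dhfr and 0.02 for upb1. The part of dye, slide and embryo pool in these gaps cannot be told apart.

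None of the 7 genes lies on the chromosome of gnl2 in assembly GRCz12tu. Among the 5 protein-coding genes on each side of a member in gene order, 26 were measured, with mean ratios from -0.33 to 0.40. The 3 measured neighbours of upb1 lay between -0.06 and 0.06, and the 6 of rrm2l between -0.11 and 0.32. As rrm2l and upb1 were chosen on their own ratios, nothing is read from their distance to these neighbours.

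The other genes of nucleotide metabolism had a median ratio close to that of all probes. In 6 lists covering pyrimidine and purine synthesis, deoxynucleotide handling, folate metabolism, and purine and pyrimidine breakdown, 76 further genes were measured, with a median ratio of 0.03 against 0.002 over all probes. Of these, 0 passed an adjusted p under 0.05 in limma, and without adjustment 4 were higher and 1 lower, against 2.03% and 1.24% of all probes. On both arrays 11 were lower, or 14.5%, and 22 were higher, or 28.9%, against 20.0% and 21.4% of all probes.

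Among the further pyrimidine breakdown genes, upb1 apart, upp2, encoding a uridine phosphorylase that splits uridine into uracil and ribose phosphate, had the largest ratio and was 1 of the genes at 0.3 or higher on both arrays, as were 1.01% of all probes. Its intensity was 481 in mutants and 336 in wild types on array 1, and 290 in mutants and 211 in wild types on array 2. The ratios were 0.52 and 0.46, with a mean of 0.49 ± 0.04 (SD, n = 2, limma adjusted p = 1.00). Of the 6 genes measured in this list, 3 had higher signals on both arrays and 3 were split (21.4% and 58.6% of all probes), with a median of 0.14. The dihydropyrimidine dehydrogenase gene dpydb, for the first step of the pathway, was split at 0.39 and -0.07. The related phosphorylase gene upp1 had a mean of 0.004 ± 0.13, and abat, a transaminase gene acting on β-alanine, one of 0.12 ± 0.15. In the same list aldh6a1 was split at -0.56 and 0.26, with a mean of -0.15 ± 0.58, and nt5c3a had 0.76 and 0.02. The median of all 6 on the arrays was 0.25 and 0.12.

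Genes that feed the same deoxynucleotide pools come next. The salvage gene tk1, encoding thymidine kinase, was split at 0.53 and -0.29. The gene cad, whose product starts pyrimidine synthesis, was split at -0.47 and 0.25, and umps, which completes UMP, at 0.22 and -0.15. The gene dhodh, for the step between them, had -0.18 and -0.20. The uridine-cytidine kinase gene uck2a had higher signals on both arrays, with a mean of 0.39 ± 0.12 (SD, n = 2). Its relative uck1 had lower signals on both, at -0.07 and -0.93, averaging -0.50 ± 0.61. The deoxynucleotide list had a median of 0.006 over 13 genes, and 10 of these were split (76.9%), 2 lower on both arrays (15.4%) and 1 higher (7.69%), where all probes gave 58.6%, 20.0% and 21.4%. In the pyrimidine synthesis list 6 of 10 genes were split, or 60.0%.

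In folate metabolism shmt1, encoding the serine hydroxymethyltransferase that charges folate with a carbon unit, was split at 0.38 and -0.34. The glycine cleavage gene gldc had the lowest mean of all 6 lists at -0.86 ± 0.74, with -0.34 and -1.38 on the arrays, but its dimmer probe gave -0.09. The folate-retaining enzyme gene fpgs had 0.32 ± 0.10. The folate list had a median of 0.06 over 15 genes, 6 higher on both arrays (40.0%), 4 lower (26.7%) and 5 split (33.3%), beside 21.4%, 20.0% and 58.6% of all probes.

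In purine metabolism the nucleoside phosphorylase gene pnp5a had 0.49 and 0.72 (mean 0.60 ± 0.17), whereas its other probe gave -0.04. The adenosine kinase gene adkb had -0.54 and -0.22, with a mean of -0.38 ± 0.23 (SD, n = 2). Purine synthesis genes had a median of 0.06 over 19 genes, with 5 higher on both arrays (26.3%), 2 lower (10.5%) and 12 split (63.2%). Purine salvage and breakdown genes had a median of 0.04 over 13 genes, with 5 higher (38.5%), 1 lower (7.69%) and 7 split (53.8%). The shares over all probes were 21.4%, 20.0% and 58.6%.

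**Figure D4:**
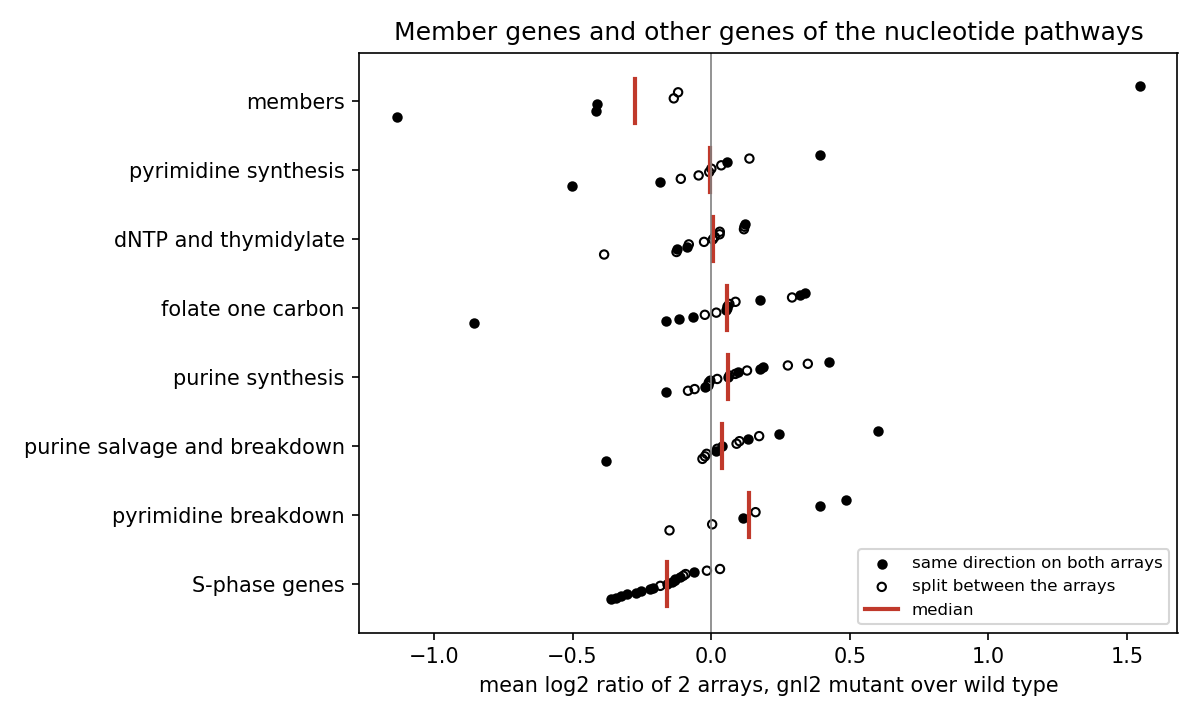
Mean log2 ratio of mutant over wild type over 2 arrays (horizontal axis) for the measured member genes, 6 lists of nucleotide metabolism and S-phase genes, with 1 point per gene at its brightest probe, filled where both arrays share a direction, and a red bar at the list median. The members run from -1.13 (rrm2l) to 1.55 (upb1), while the medians of the 6 lists lie between -0.003 and 0.14 and that of the S-phase genes at -0.16.

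Genes of DNA replication and of entry into S phase mostly had ratios below 0. Of 19 measured S-phase genes 13 were lower on both arrays (68.4%, against 20.0% of all probes), 0 were higher (against 21.4%) and 6 were split (31.6%, against 58.6%), with a median of -0.16. This list was chosen with earlier results of these data known. It takes the brightest probe of each gene, while all probes include dim ones, so the shares are given as a description. The polymerase subunit gene pole2 had -0.36 ± 0.14 and the clamp gene pcna -0.06 ± 0.03. The mean ratios of rrm2l, dhfr and dut, at -1.13, -0.42 and -0.41, lay below the lowest of these genes. That of dut came from array 2. On neither array was dhfr below all S-phase genes: its -0.39 on array 1 lay above pole2 at -0.46, and its -0.44 on array 2 above mcm7 at -0.46. As the members were chosen on these same ratios, nothing is read from their place below the S-phase genes. The mean ratios of the rrm1 and rrm2b probes lay within the S-phase range of -0.36 to 0.03. The summed intensity of the S-phase genes was 101762 and 43341 in mutants on arrays 1 and 2, against 115489 and 53744 in wild types. The brightest probe in this sum, mcm7 with 42682 in mutants and 48823 in wild types on array 1, was saturated in the mutant channel of 1 array. In RNA of whole embryos, fewer cycling cells and less RNA per cell cannot be told apart. Tissue markers also differed: of 20 measured, 9 were higher on both arrays (45.0%), 6 lower (30.0%) and 5 split (25.0%), beside 21.4%, 20.0% and 58.6% of all probes. The probes of ctslb and cyt1, counted as lower, and of krt4 and krt5, counted as split, were saturated in the mutant channel of 1 array. For krt4 and krt5 the wild-type channel was saturated on both arrays. Saturation can alter these ratios and so the counts. The neural progenitor genes sox2 and sox3 had means of -0.61 and -0.31. Of other neural genes, pax6a had -0.13, neurod1 -0.02 and elavl3 0.08. Muscle genes had positive ratios on both arrays at their brightest probe, with means of 0.45 for actc1b, 0.44 for myod1, 0.41 for myog and 0.53 for desma. A dimmer probe gave means of 0.11 for actc1b and 0.09 for myod1. The part of cell cycling, p53 or tissue makeup in the member ratios was not tested.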

How the data were processed

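RNA of gnl2 mutant and wild-type embryos was compared on 2 Agilent zebrafish arrays of 22575 spots each, 1080 of them controls. Per the file headers, Agilent Feature Extraction gave each spot a mean signal and a median local background as intensity, and its log10 ratio of red over green rests on signals that were spatially detrended and LOWESS dye-normalized (smoothing 0.25). The software's error of this ratio, a score in the deposited files, comes from a model of 1 array. In the deposited value table the same log10 ratio stands unturned, as red over green. The median signal of array 1 was 482 in red and 243 in green. That of array 2 was 305 in red and 204 in green, and the number of arrays limits the precision.

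Signals were corrected with normexp (offset 50) and normalized by loess within each array (span 0.3, controls and flagged outliers given weight 0) with limma 3.58.1 and R 4.3.3. A total of 749 gene probes with an outlier flag were dropped. A probe was kept if well above background on both arrays in 1 genotype, which removed 1462 more. limma's lmFit and eBayes tested 19284 probes, 2-sided, with Benjamini-Hochberg adjustment and 3.49 total degrees of freedom. The fit was also run on simulated data in which the 2 arrays varied independently. The real ratios of the arrays were negatively correlated, so nothing is read from that run. In the lists the brightest probe stands for a gene. Names followed the tables of GRCz12tu: accession gave the name for 7352 probes, symbol for 588, a synonym for 2337, and 11218 kept the file's own. The members and lists were chosen with earlier results of these data known. Other named genes of the 6 pathway lists are those with a log2 ratio of at least 0.3 in size in 1 direction on both arrays, up to 6 a direction, and cad, tk1 and shmt1. The genes dpys, dpyd, cda, dtymk, samhd1 and dck, which the rule also names, were not matched to a probe that passed. The genes fgg, ctslb, cyt1, krt4, krt5, aldh6a1 and nt5c3a were named after their values were seen. Genes at an unadjusted p under 0.05 (adkb and fpgs in addition), and dpydb, upp1, abat, umps, dhodh, pole2, pcna, fabp10a, hnf4a, fgb, fga, tfa, serpina1, ambp, rbp4, gc, ttr, apoeb, apoa1a, uck1, mcm7, sox2, sox3, pax6a, neurod1, elavl3, actc1b, myod1, myog, desma and mpx, were named after their values were seen. Alternatives were normexp without an offset, Agilent's processed signals, the deposited ratios, median centring, other filters on dim, flagged and saturated probes, means over a gene's probes, and leaving out each array.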

Additional observations from a re-analysis of the deposited data

How the results depend on the processing

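Under the alternatives to the processing other than leaving out an array, each measured gene kept the direction of its mean ratio. Over these and the ratios as reported, the mean lay between -1.16 and -1.10 for rrm2l, between -0.47 and -0.38 for dhfr, between -0.43 and -0.39 for dut, between -0.19 and -0.10 for rrm1, between -0.20 and -0.08 for rrm2b and between 1.55 and 1.76 for upb1. The median of the synthesis genes was -0.41. It became -0.28 with outlier-flagged probes kept, where tyms joins as the 6th gene, and lay between -0.53 and -0.39 when 1 array was left out. On single arrays rrm1 lay at -0.53 without array 1 and at 0.29 without array 2, and rrm2b at 0.44 and -0.70, so both changed sign. The number of probes with an adjusted p under 0.05 in limma was 0, and 38 with median centring in place of loess, while 0 of the further nucleotide genes passed under any alternative run. Median centring also moved the nucleotide genes to 4 lower and 14 higher on both arrays. A single array has no residual degrees of freedom, so no test was run without 1 array. The fit was not run on gene means over probes. Each ratio already pairs mutant and wild type on 1 array, so the fit is itself paired and no further replicate block was fitted. With 2 arrays the fit has few degrees of freedom, so counts of 0 say little about single genes.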
